A study of Mus musculus with 43 samples.

Results

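The genes described are the collagen chain genes of the mouse, chosen from the gene table by symbol alone (Col, a number, a, a number, and nothing more). The rule found 44 of the 21938 genes, which belong to 27 collagen types numbered 1 to 28. Of these, 39 passed the filter on low counts and were tested among 14836 genes. The other 5 were Col2a1, Col9a1, Col9a2, Col19a1 and Col25a1. RNA from the inferior lung lobe was sequenced in 3 groups of mice. Control mice had received a vehicle that the labels leave unnamed (10 libraries). Mice of a bleomycin model of pulmonary fibrosis, labelled BLEO-IPF, had received either the vehicle of nintedanib (16 libraries, called vehicle below) or nintedanib (17 libraries). Bleomycin is a DNA-breaking antibiotic whose delivery to rodent lungs is followed by scarring, and nintedanib is a kinase inhibitor prescribed for lung fibrosis. Strain, sex, age, dose, route and day are not in the labels. Against control, an effect of bleomycin cannot be told apart from one of the vehicle. Nor do the labels say that each library is a separate animal, and p-values measure the spread between libraries.

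Collagens are secreted or membrane proteins in which triplets of chains wind into a helix. Fibrillar chains (types such as I, III and V) build the fibrils that stiffen scar tissue. Collagen IV forms the sheet of the basement membrane, and the multiplexins Col15a1 and Col18a1 associate with it. Col7a1 makes the fibrils that anchor that sheet. Collagen VI forms beaded filaments, collagens VIII and X form hexagonal networks, FACIT collagens sit on the surface of fibrils, and transmembrane collagens remain in the cell membrane. Scar collagen of the lung comes mainly from fibroblasts, whereas alveolar epithelium and endothelium lay down much of the basement membrane.

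Depth was 13138281 to 19111457 counts per library. The lung markers Ager, Sftpc and Pecam1 exceeded 1 CPM (read count scaled to library size) in all 43 libraries. Collagen chain genes took 0.422% ± 0.0263 of all counts in control libraries (SD, n = 10), 0.902% ± 0.336 in vehicle libraries (n = 16) and 0.788% ± 0.188 in nintedanib libraries (n = 17). The control range of 0.387% to 0.459% lay just below the lowest vehicle library, at 0.460%, and overlapped the nintedanib range of 0.448% to 1.13%. A single library, vehicle replicate 4, reached 1.86%, and values without it are given for several genes in which it was the highest library. This omission was chosen after the data had been seen. In whole-lobe RNA, a change in the number of cells that express a gene and a change in RNA per cell cannot be told apart.

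The 6 collagen IV genes lie as 3 head-to-head pairs in the annotation of GRCm38. The annotated starts of Col4a3 and Col4a4 on chromosome 1 have 71 bases between them, those of Col4a5 and Col4a6 on chromosome X have 1308, and those of Col4a1 and Col4a2 overlap by 22 bases. Sequences of 2 pairs are shown because the members of 1, Col4a3 and Col4a4, rose together in vehicle lungs and those of the other, Col4a5 and Col4a6, went opposite ways, and Col3a1, Col24a1 and Col17a1 are shown as an abundant member, a large rise and the largest fall. They are RefSeq sequences of GRCm38.p6, 5′ to 3′ on the strand of the gene named, ending before the first annotated exon base. The stretch between Col4a3 and Col4a4 (chr1:82586850-82586920, on the minus strand, the strand of Col4a4) is given whole. The others are Col4a5 (chrX:141475169-141475384, plus strand), Col4a6 (chrX:141474077-141474326, minus strand), Col3a1 (chr1:45311288-45311537, plus strand), Col24a1 (chr3:145292222-145292471, plus strand) and Col17a1 (chr19:47692095-47692292, minus strand). Capitals mark, on either strand, the letters CCAAT of a CCAAT box, the letters GGGCGG of a GC box, the letters TATAAA of a TATA box and the letters TGACTCA of an AP-1 site.
Col4a3 and Col4a4: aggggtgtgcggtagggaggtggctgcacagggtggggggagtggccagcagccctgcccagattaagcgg
Col4a5: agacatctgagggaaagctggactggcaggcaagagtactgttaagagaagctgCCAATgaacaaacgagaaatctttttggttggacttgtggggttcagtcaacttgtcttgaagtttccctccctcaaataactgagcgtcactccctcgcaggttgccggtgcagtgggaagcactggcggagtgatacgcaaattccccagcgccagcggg
Col4a6: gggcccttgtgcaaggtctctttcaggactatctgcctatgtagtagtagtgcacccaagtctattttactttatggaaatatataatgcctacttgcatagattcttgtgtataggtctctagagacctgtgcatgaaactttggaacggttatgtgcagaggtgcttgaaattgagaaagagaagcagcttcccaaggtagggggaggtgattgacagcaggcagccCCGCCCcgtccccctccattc
Col3a1: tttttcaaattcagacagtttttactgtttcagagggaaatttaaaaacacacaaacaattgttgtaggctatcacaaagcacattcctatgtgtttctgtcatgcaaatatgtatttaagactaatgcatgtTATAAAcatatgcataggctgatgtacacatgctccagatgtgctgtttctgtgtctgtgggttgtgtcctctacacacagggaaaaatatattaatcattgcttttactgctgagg
Col24a1: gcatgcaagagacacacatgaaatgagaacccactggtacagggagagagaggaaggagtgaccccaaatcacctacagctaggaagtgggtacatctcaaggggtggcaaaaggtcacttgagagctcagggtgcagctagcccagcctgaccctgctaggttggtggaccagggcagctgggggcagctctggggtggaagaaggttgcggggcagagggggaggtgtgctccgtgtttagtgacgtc
Col17a1: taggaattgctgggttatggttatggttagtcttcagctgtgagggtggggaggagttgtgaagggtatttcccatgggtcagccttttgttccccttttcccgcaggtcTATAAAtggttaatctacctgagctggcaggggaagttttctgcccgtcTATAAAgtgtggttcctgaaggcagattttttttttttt

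Promoter sequences were found for 35 of the 44 members, in 38 windows of 250 bases before a start. GGGCGG stood in 22 of these windows (57.9%) and in 32.7% of all 32851 RefSeq windows of that length. CCAAT was found in 34.2% of member windows and 33.8% of all windows, TATAAA in 13.2% and 12.4%, and TGACTCA in 1 member window, that of Col6a1, and 4.46% of all. The stretch between Col4a3 and Col4a4 held none of the 4 motifs, and Col17a1 held TATAAA at 2 places in the bases printed. Such matches describe letters, not sites.

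In vehicle lungs against control lungs, 28 of 39 tested collagen genes rose, 6 fell and 5 did not pass edgeR's quasi-likelihood test at an adjusted p of 0.05. Of all tested genes 29.5% rose and 28.3% fell. At least 2-fold rises that passed numbered 15, beside 6.06% of all tested genes. Every tested fibrillar gene rose, as did 8 of 9 basement membrane genes, and all 3 tested transmembrane genes fell. With 2 surrogate variables in the fit, 21 rose and 2 fell, beside 22.2% and 19.6% of all genes, and the fibrillar genes Col5a1, Col11a1, Col11a2 and Col27a1 no longer passed. The median log2 fold change was 0.82 over the 39 members and -0.01 over all tested genes. In 6 members, Col1a1, Col1a2, Col3a1, Col5a2, Col7a1 and Col24a1, the lowest vehicle library lay above the highest control library, which 3.7% of all genes showed. The plot of fold changes by class gives both bleomycin comparisons side by side.

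**Figure D1:**
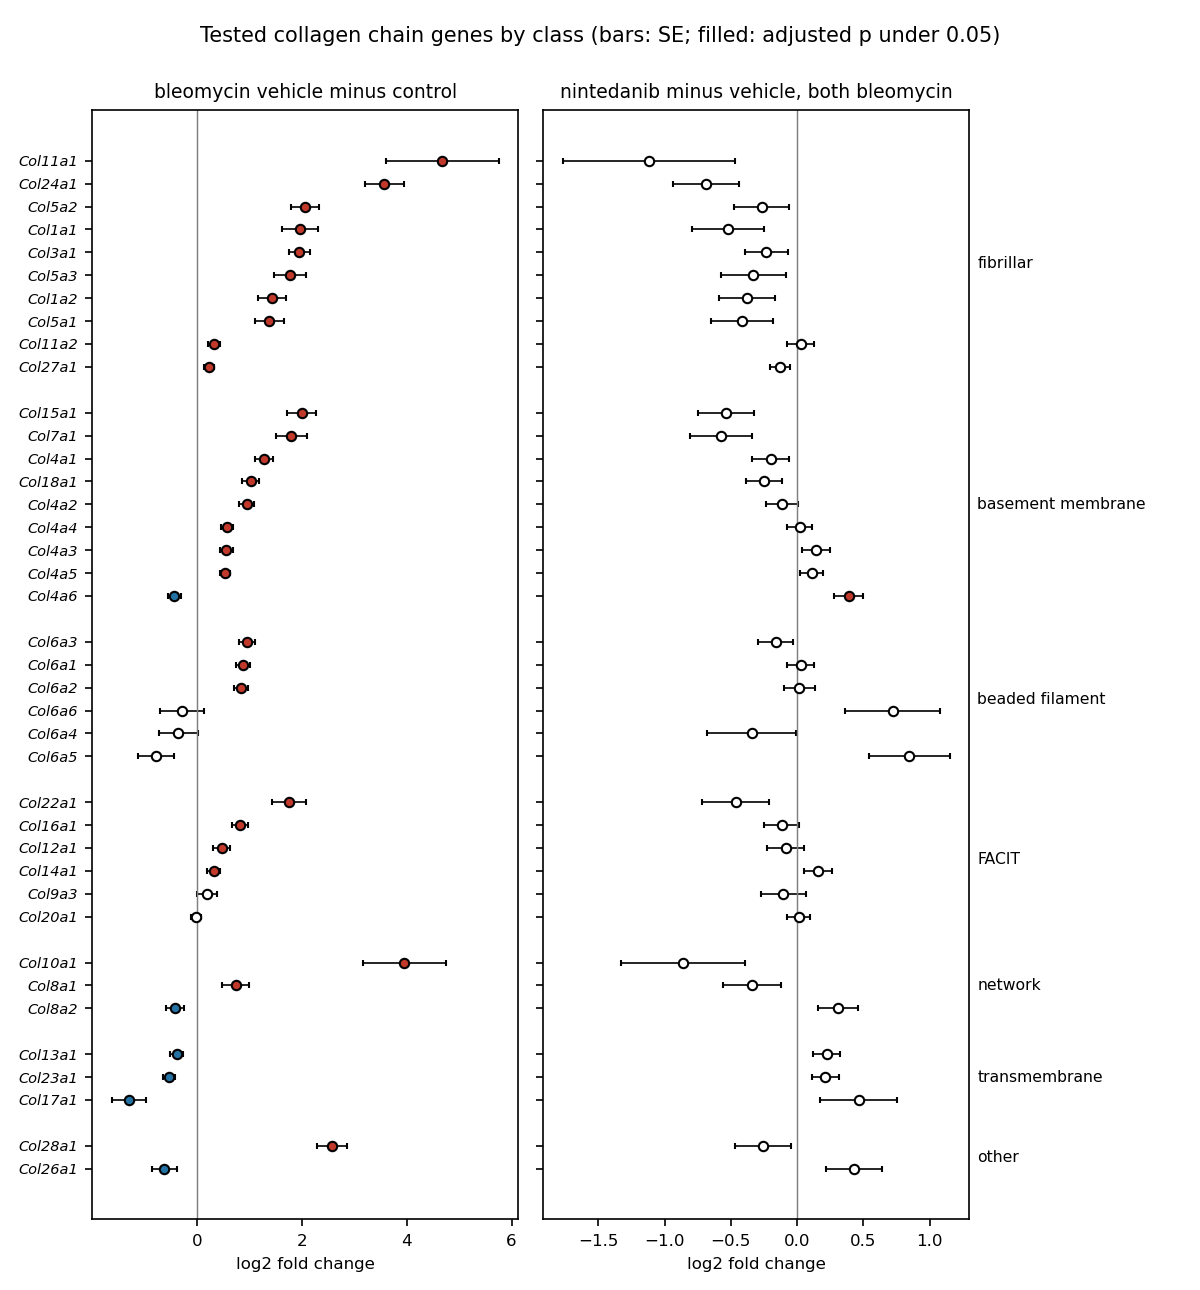
Log2 fold changes of the 39 tested collagen chain genes by class, with SE bars, for vehicle against control (left) and nintedanib against vehicle (right). Filled points passed an adjusted p of 0.05 (red higher, blue lower): 28 red and 6 blue on the left, and Col4a6 alone on the right.

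Fibrillar genes carried the greatest rises, with 10 of 10 tested members higher and a median log2 fold change of 1.86. Col3a1, the chain of type III collagen and the fibrillar gene with the highest mean level over all libraries, had 242 to 342 CPM in control libraries with a median of 297. It had 445 to 2533 CPM in vehicle libraries with a median of 1099, and 504 to 1406 in nintedanib libraries with a median of 943. No bleomycin library of either group overlapped the control range. Its rise in vehicle lungs was 1.95 ± 0.20 on the log2 scale (SE, adjusted p = 1.3e-10), higher in 16 of 16 libraries. Col1a2, a chain of type I collagen, ran from 311 to 347 CPM (median 329.5) in control, 364 to 3413 (median 727) in vehicle and 396 to 1291 (median 602) in nintedanib libraries. Its log2 fold change in vehicle lungs was 1.43 ± 0.26 (adjusted p = 1.15e-05), again without overlap, and 1.09 without vehicle replicate 4. The partner chain Col1a1 ranged from 156 to 241 CPM in control, 248 to 3823 in vehicle and 305 to 1285 in nintedanib libraries, with a log2 fold change of 1.96 ± 0.34 in vehicle lungs (adjusted p = 5.25e-06). The second-highest vehicle library held 1111 CPM of Col1a1, and without vehicle replicate 4 the change was 1.49.

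Type V chains, which nucleate type I fibrils, all rose. Col5a2 had a log2 fold change of 2.07 ± 0.27, Col5a3 of 1.78 ± 0.31 and Col5a1 of 1.38 ± 0.28. Without vehicle replicate 4 these changes were 1.85, 1.5 and 1.03. Rises were larger still for 2 minor fibrillar genes of low level. Col24a1, a fibrillar chain known from bone, ranged from 0.185 to 0.761 CPM in control, 1.07 to 9.12 in vehicle and 0.549 to 6.003 in nintedanib libraries, and rose by 3.57 ± 0.37 (adjusted p = 1.36e-10). Col11a1, a cartilage fibril chain, had 0 to 0.364 CPM in control (median 0.0892), 0 to 34.6 in vehicle (median 0.576) and 0 to 7.15 in nintedanib libraries (median 0.527). All 3 ranges began at 0 and overlapped, and 18 reads in all came from control libraries. Its log2 fold change of 4.67 ± 1.08 (adjusted p = 0.000298) fell to 2.89 without vehicle replicate 4, whose 34.6 CPM stood beside 2.27 in the next library (adjusted p = 0.00299). Col11a2 (0.32 ± 0.12) and Col27a1 (0.23 ± 0.09) rose by the smallest amounts of the class. The call of Col11a2 was lost without control replicate 3 or 5 (largest adjusted p = 0.077), and that of Col27a1 when control replicate 3 to 10, nintedanib replicate 12 or 14, or vehicle replicate 3, 4, 6 or 10 was left out (largest adjusted p = 0.097).

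**Figure D2:**
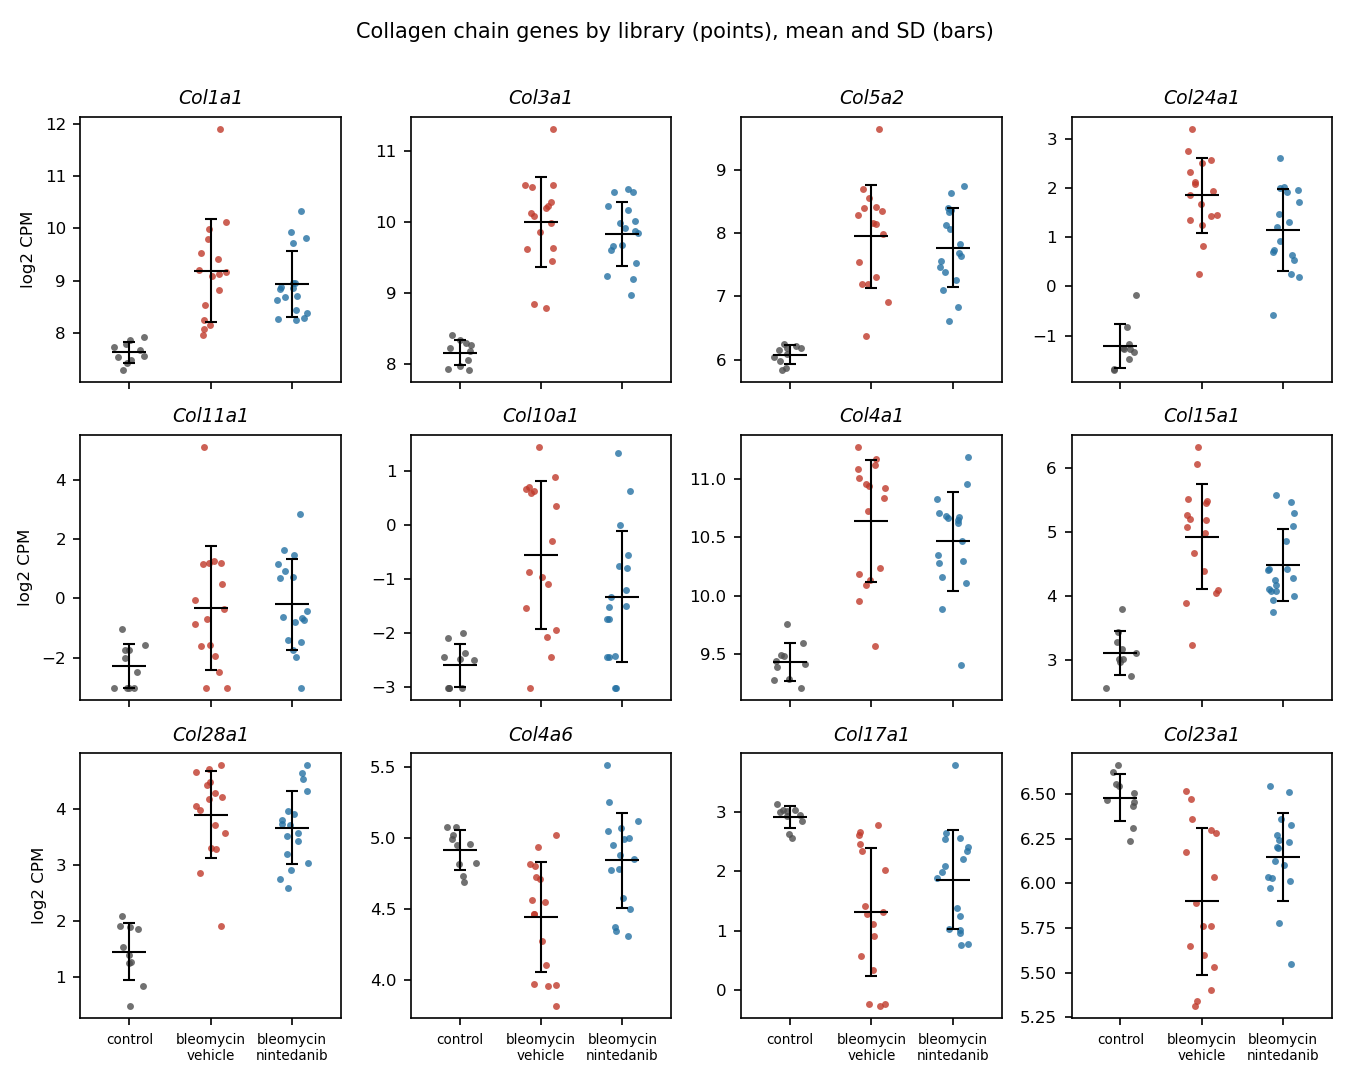
Log2 CPM of 12 collagen chain genes in every library (points), with the mean and SD of each group (bars). Col1a1, Col3a1, Col5a2 and Col24a1 lie higher in all 16 vehicle libraries than in any control library, and the vehicle library at the top of Col1a1, Col3a1, Col5a2, Col24a1 and Col11a1 is the same one, replicate 4.

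Collagen IV genes did not all move alike. Col4a1 and Col4a2 encode the chains of the collagen IV found in nearly all basement membranes, and were the most abundant collagen genes per kilobase. Col4a1 had 591 to 867 CPM in control (median 689), 760 to 2477 in vehicle (median 1886) and 680 to 2331 in nintedanib libraries (median 1576). Col4a2 had 615 to 900 CPM in control (median 699), 745 to 2027 in vehicle (median 1491) and 552 to 1974 in nintedanib libraries (median 1340). The ranges of the groups overlapped, while 16 of 16 vehicle libraries lay above the control median for each gene. Their log2 fold changes in vehicle lungs were 1.28 ± 0.17 (adjusted p = 2.57e-08) and 0.95 ± 0.15 (adjusted p = 5.39e-07). Col4a3, Col4a4 and Col4a5, whose chains form the collagen IV of alveolar and glomerular basement membranes, rose by 0.56 ± 0.13, 0.57 ± 0.11 and 0.53 ± 0.10. Col4a6, whose chain joins that of Col4a5 in basement membranes around smooth muscle and some epithelia, went from 25.7 to 33.8 CPM in control to 13.9 to 32.4 in vehicle libraries and fell by 0.43 ± 0.13 (adjusted p = 0.00323), lower in 15 of 16. With 2 surrogate variables in the fit it was -0.17 and did not pass (adjusted p = 0.182). In the fit without them, 1 member of the pair on chromosome X rose and the other fell.

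Within each library, Col4a3 relative to Col4a1 (log2 ratio of counts per kilobase of exon) was -1.93 ± 0.09 in control libraries (SD, n = 10) and -2.61 ± 0.44 in vehicle libraries (n = 16). The difference of -0.68 had a permutation p of 4e-05 (two-sided, 0.00024 adjusted over 6 ratio comparisons). Without the libraries that held at least 1 CPM of the adipocyte gene Adipoq, which left 2 control libraries, it was -0.70 with an exact permutation adjusted p of 0.088. Col3a1 relative to Col1a1 was -0.04 ± 0.11 in control and 0.22 ± 0.49 in vehicle libraries, a difference of 0.27 that did not pass (permutation adjusted p = 0.14). Without vehicle replicate 4, in which Col1a1 stood highest against Col3a1, that difference was 0.36 with an adjusted p of 0.0069 by the permutation test. That omission was chosen after the values had been seen, so its p is not that of a planned test. These ratios need no scaling between libraries.

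**Figure D3:**
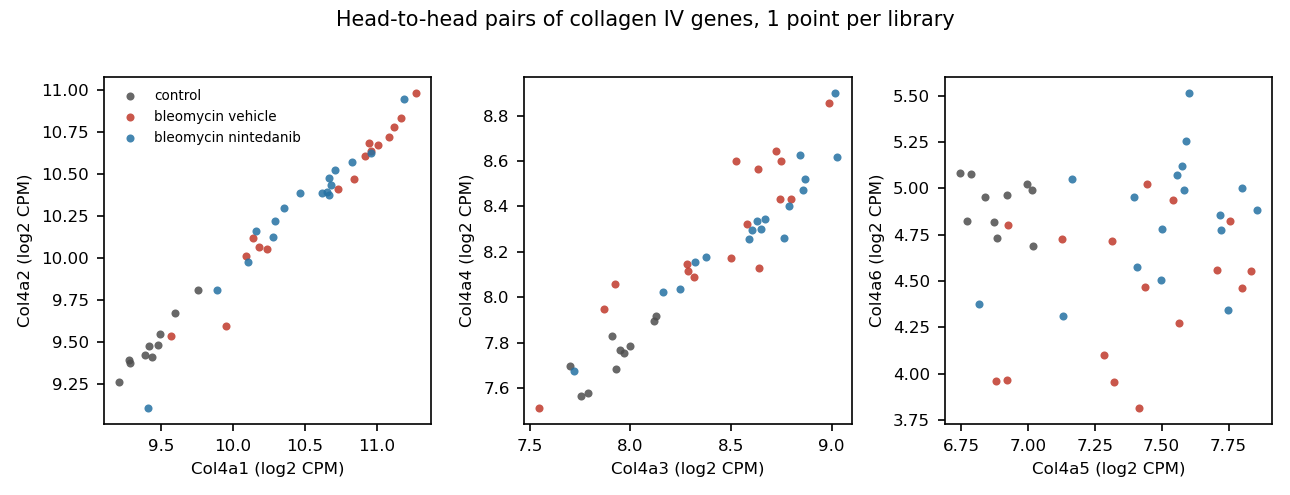
Log2 CPM of the 2 members of each head-to-head collagen IV pair, 1 point per library, by group. Points of Col4a1 with Col4a2 and of Col4a3 with Col4a4 follow a line, and those of Col4a5 with Col4a6 do not (r = 0.32 in vehicle and 0.38 in nintedanib libraries).

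Across libraries of 1 group, Col4a2 varied with Col4a1 at r = 0.98 (Spearman's rho = 0.98, n = 16) in vehicle and r = 0.97 (rho = 0.98, n = 17) in nintedanib libraries. Col4a4 varied with Col4a3 at r = 0.89 (rho = 0.83) and r = 0.94 (rho = 0.95). For these 4 relations the adjusted permutation p was at most 0.0003, and r was 0.79 to 0.99 without the 2 libraries farthest from the median. Col4a6 against Col4a5 gave r = 0.32 (rho = 0.29, permutation adjusted p = 0.23) and r = 0.38 (rho = 0.26, adjusted p = 0.17), and r = 0.02 and -0.08 without the 2 farthest libraries. The 6 relations were picked after the values had been seen and adjusted together. Whether counting used the strand is not given, and reads in the 22 bases shared by Col4a1 and Col4a2 could then be counted for either.

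Other basement membrane genes rose as well. Col15a1, a multiplexin of vessel and muscle basement membranes, had 5.80 to 13.8 CPM in control (median 8.28), 9.32 to 79.9 in vehicle (median 34.8) and 13.4 to 47.8 in nintedanib libraries (median 19.4). Only the lowest vehicle library, replicate 10, reached into the control range. Its log2 fold change of 2.0 ± 0.27 (adjusted p = 5.01e-08) was the largest of the class. Col7a1, the anchoring fibril chain, rose by 1.80 ± 0.30 with 12.2 to 17.6 CPM in control and 18.1 to 198 in vehicle libraries. Without vehicle replicate 4 the rise of Col7a1 was 1.43. Col18a1, whose cleaved end is endostatin, rose by 1.03 ± 0.16.

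Collagen VI genes fell into 2 sets by level. Col6a1, Col6a2 and Col6a3, the classical chains of the beaded filament, all rose. Col6a1 had 277 to 354.5 CPM in control (median 321), 321.5 to 779.8 in vehicle (median 583) and 297 to 843 in nintedanib libraries (median 615), a log2 fold change of 0.88 ± 0.13 in vehicle lungs (adjusted p = 1.2e-07). Col6a2 had 167 to 225 CPM in control (median 197), 166 to 503 in vehicle (median 346) and 201 to 516 in nintedanib libraries (median 371), a log2 fold change of 0.84 ± 0.14. Col6a3 had 108 to 174 CPM in control (median 135), 148 to 587 in vehicle (median 250.2) and 147 to 342 in nintedanib libraries (median 217.5), a log2 fold change of 0.95 ± 0.16. For each of the 3 genes the control and vehicle ranges overlapped, and 14 to 16 of 16 vehicle libraries lay above the control median. The alternative chains Col6a4, Col6a5 and Col6a6 had medians from 0.498 to 1.06 CPM in every group and log2 fold changes of -0.35, -0.78 and -0.28 that did not pass (adjusted p = 0.425, 0.0519 and 0.587). For Col6a4 the sign rests on control replicate 4, at 5.74 CPM beside 0.941 in the next control library. Without it the log2 fold change of Col6a4 was 0.55 (adjusted p = 0.102).

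Among FACIT genes, 4 of 6 tested members rose. Col12a1, which decorates type I fibrils in tendon and healing tissue, had 70.7 to 89.99 CPM in control (median 77.0), 40.4 to 234 in vehicle (median 105) and 64.7 to 139 in nintedanib libraries (median 102). Its vehicle libraries reached both above and below control, and its log2 fold change was 0.48 ± 0.16 (adjusted p = 0.0122). This became -0.14 with 2 surrogate variables in the fit, and 0.33 without vehicle replicate 4 (adjusted p = 0.0445 by the quasi-likelihood test). Col16a1 had 36.8 to 46.6 CPM in control (median 39.9), 36.7 to 140 in vehicle (median 70.7) and 31.1 to 93.1 in nintedanib libraries (median 67.7), with a log2 fold change of 0.82 ± 0.16 (adjusted p = 1.92e-05). Col22a1, known from muscle-tendon junctions, changed most, by 1.76 ± 0.33 (adjusted p = 1.88e-05), at 0.0691 to 0.566 CPM in control (median 0.198), 0.171 to 2.04 in vehicle (median 0.674) and 0.0686 to 1.13 in nintedanib libraries (median 0.61). Col14a1, a fibril-surface collagen, rose by 0.32 ± 0.12 (adjusted p = 0.051 without control replicate 2), while Col9a3 (0.19) and Col20a1 (-0.02) did not pass.

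The network genes went different ways. Col8a1, a chain of vessel and corneal matrix, had 11.7 to 16.8 CPM in control (median 13.9), 8.79 to 52.6 in vehicle (median 20.9) and 8.94 to 42.9 in nintedanib libraries (median 15.6), and rose by 0.74 ± 0.26 (adjusted p = 0.0135, but -0.13 with 2 surrogate variables in the fit). Its partner chain Col8a2 had 15.8 to 24.4 CPM in control (median 20.3), 7.39 to 28.2 in vehicle (median 15.4) and 10.3 to 33.6 in nintedanib libraries (median 19.5), and fell by 0.42 ± 0.18 (adjusted p = 0.0399, but 0.00 with 2 surrogate variables). Both vehicle ranges enclosed the control range, and the fall of Col8a2 lost its call when control replicate 6 or 9 or vehicle replicate 2, 7, 11, 14, 15 or 16 was left out (largest adjusted p = 0.064). Col10a1, the collagen of hypertrophic cartilage, had 0 to 0.126 CPM in control (median 0.0545), 0 to 2.61 in vehicle (median 0.561) and 0 to 2.42 in nintedanib libraries (median 0.229). Its log2 fold change of 3.96 ± 0.79 (adjusted p = 4.72e-05) rests on 8 reads in all control libraries. The 11 cartilage markers summed to 10.8 to 42 CPM in control and 6.89 to 16.1 CPM in vehicle libraries. Most of that sum was Chad, which fell, with 9.7 to 39.9 CPM in control and 3.15 to 11.6 in vehicle libraries. Of the 3 other tested markers, Hapln1 (median 0.349 CPM in control and 1.13 in vehicle) and Comp (0.612 and 1.33) rose, while Sox9 (0.598 and 1.12) did not pass. The defining marker Acan was at most 0.0729 CPM in control and 0.395 CPM in vehicle libraries.

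All 3 tested transmembrane genes fell. Col17a1, the hemidesmosome collagen of epithelial cells, had 5.76 to 8.67 CPM in control (median 7.74), 0.703 to 6.75 in vehicle (median 2.32) and 1.56 to 13.7 in nintedanib libraries (median 3.86). It fell by 1.30 ± 0.33 on the log2 scale (adjusted p = 0.000762), lower in 16 of 16 vehicle libraries, and with 2 surrogate variables the change was -0.74 without passing (adjusted p = 0.0705). Markers of secretory and ciliated airway cells moved the same way. All 8 club and secretory cell markers fell and summed to 17300 to 31500 CPM in control and 5200 to 20500 in vehicle libraries, and 7 of 8 ciliated cell markers fell, with sums of 2050 to 3060 and 937 to 3050. Of 5 basal epithelial markers 2 rose and 0 fell. Their sum had a median of 4.16 CPM in control and 5.48 in vehicle libraries, and reached 139 CPM in vehicle replicate 4. The 7 alveolar type 1 markers gave 2 rises and 1 fall, and the 7 alveolar type 2 markers 3 rises and 0 falls. The part of these cells in the Col17a1 level was not tested. Col23a1 had 75.3 to 101.2 CPM in control (median 89.7), 39.6 to 91.5 in vehicle (median 56.7) and 46.7 to 93.5 in nintedanib libraries (median 73.2), and fell by 0.53 ± 0.12 (adjusted p = 0.000142). Col13a1, a collagen of cell adhesions and nerve-muscle junctions, had 51.9 to 71.7 CPM in control (median 67.2), 29.9 to 72.6 in vehicle (median 52.3) and 33.1 to 81.9 in nintedanib libraries (median 58.7), and fell by 0.39 ± 0.12 (adjusted p = 0.00483). The control and vehicle ranges of all 3 genes overlapped, with 15 or 16 of 16 vehicle libraries below the control median.

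The 2 members outside these classes also parted. Col28a1, a von Willebrand domain collagen described in peripheral nerve, had 1.27 to 4.14 CPM in control (median 2.64), 3.63 to 27.3 in vehicle (median 17.1) and 5.92 to 27.3 in nintedanib libraries (median 13), and rose by 2.57 ± 0.28 (adjusted p = 5.95e-10). The summed level of the 6 Schwann cell markers was 76.0 to 87.9 CPM in control and 77.9 to 98.2 in vehicle libraries. Of the 4 Schwann cell markers tested, 1 rose and 2 fell, with log2 fold changes from -1.12 to 0.20. The part of nerve in the Col28a1 level was not tested. Col26a1 had 0.503 to 1.39 CPM in control (median 0.788), 0.221 to 1.39 in vehicle (median 0.475) and 0.331 to 1.48 in nintedanib libraries (median 0.753), and fell by 0.62 ± 0.24 (adjusted p = 0.0249, but -0.26 and 0.372 with 2 surrogate variables). Both members had overlapping control and vehicle ranges.

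Marker levels of other tissues moved with the groups. Adipoq, the adipocyte hormone, reached 1 CPM in 8 control, 0 vehicle and 5 nintedanib libraries, and the 8 adipocyte markers summed to 15.2 to 2870 CPM in control and 10.8 to 50.0 in vehicle libraries. Without the libraries that held Adipoq, 2 control libraries were left, and 13 members rose and 0 fell in vehicle against control, beside 13.4% higher and 10.5% lower of all genes in that fit. Those 13 were Col1a1, Col3a1, Col4a1, Col4a2, Col5a2, Col5a3, Col6a1, Col6a2, Col6a3, Col15a1, Col18a1, Col24a1 and Col28a1. Of the adipocyte markers 7 of 7 tested fell, as did 7 of 8 tested markers of skeletal and cardiac muscle, whose sum was 308 to 1650 CPM in control and 20.6 to 567 in vehicle libraries. The 7 smooth muscle markers, of which 5 fell, summed to 289 to 464 CPM in control and 205 to 327 in vehicle libraries. Of 8 endothelial markers 7 fell, with sums of 4230 to 5680 CPM in control and 1580 to 4170 in vehicle libraries, and of 8 alveolar fibroblast markers 6 fell, with sums of 5450 to 6350 and 1990 to 4970. All 7 macrophage markers rose, and their sum went from 470 to 769 CPM in control to 518 to 3740 in vehicle libraries. Of 9 activated fibroblast markers 6 rose and 3 did not pass, with sums of 593 to 667 CPM in control and 1010 to 3870 in vehicle libraries. Spp1, which macrophages also express, made up most of that difference, with 36.8 to 119 CPM in control and 553 to 3030 in vehicle libraries. Tnc (12 and 206 CPM) and Grem1 (0.396 and 18) rose from the control to the vehicle median, whereas Postn (330 and 313) and Acta2 (159 and 136) did not pass. Of 7 pericyte markers 1 rose and 4 fell, and of 7 adventitial fibroblast markers 2 rose and 3 fell. Of 6 mesothelial markers 2 rose and 0 fell, and of 6 leukocyte markers 0 rose and 3 fell. The part of these cells in the collagen results was not tested.

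Per kilobase of exon, fibrillar chains made up a larger mean share of collagen RNA in the bleomycin groups. Fibrillar genes made up 18.9% ± 1.35 of collagen CPM per kilobase in control libraries (SD, n = 10), 28.2% ± 9.03 in vehicle (n = 16) and 25.8% ± 4.62 in nintedanib libraries (n = 17). Basement membrane genes held 50.8% ± 1.90, 48.9% ± 7.25 and 48.9% ± 3.49, and transmembrane genes 5.74% ± 0.469, 2.19% ± 1.11 and 2.62% ± 0.761. Vehicle replicate 4 was at 58.4% fibrillar and 25% basement membrane, and the fibrillar medians were 19.1%, 25.9% and 24.9%. Control (16.9% to 20.5%) and vehicle (18.8% to 58.4%) ranges overlapped, and no test was made of these shares. In control libraries the highest median levels per kilobase were those of Col4a2 (106), Col4a1 (92.3) and Col6a1 (73.3), ahead of Col3a1 (30.2), Col1a1 (29.9) and Col1a2 (26.5). In vehicle libraries Col4a1 (253) and Col4a2 (225) still led, Col6a1 stood at 133, Col3a1 at 112 and Col1a1 at 86.2. Lengths are the union of all annotated exons of a gene, so levels of genes with long minor transcripts are understated.

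**Figure D4:**
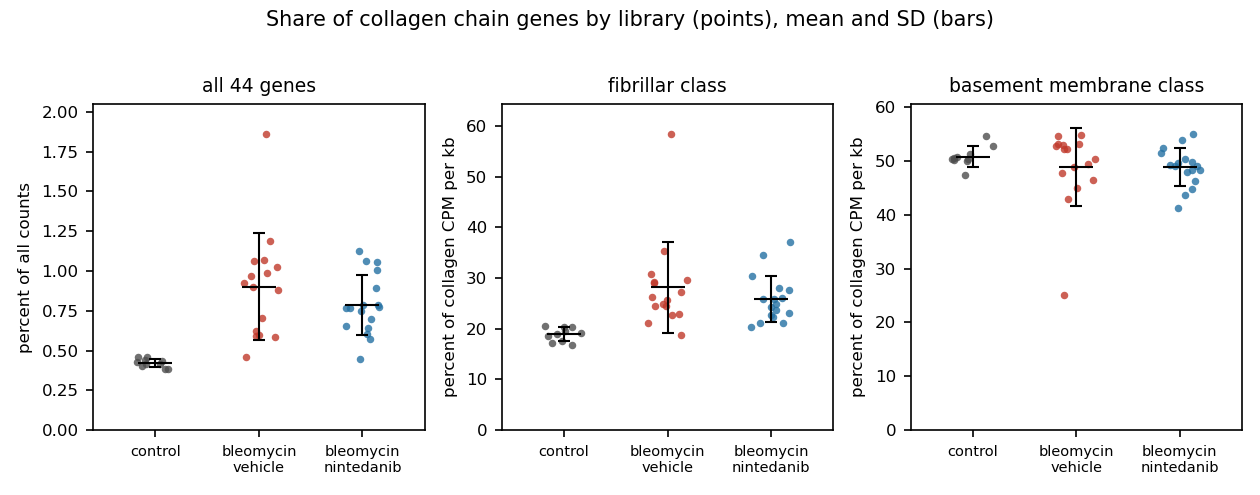
Percent of all counts on the 44 collagen chain genes (left), and percent of collagen CPM per kilobase held by the fibrillar (middle) and basement membrane (right) classes, by library (points), with mean and SD (bars). The vehicle library at 58.4% fibrillar and 25% basement membrane is replicate 4.

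Nintedanib against vehicle, both in bleomycin mice, tested whether collagen expression differed under treatment. By edgeR's quasi-likelihood test 1 of 39 collagen genes passed, Col4a6, which was higher, and 0 were lower, beside 3.21% of all genes higher and 4.1% lower. At an unadjusted p under 0.05, 5 members were higher and 3 lower, beside 11.5% and 12.9% of all genes. DESeq2 also gave 1 higher and 0 lower. Run with a quality weight for each library, limma-voom gave 4 higher (Col4a6, Col6a5, Col8a2, Col23a1) and 2 lower (Col15a1, Col24a1). Over all genes DESeq2 called 4.05% higher and 5.21% lower, and limma-voom 7.39% and 7.98%. The median log2 fold change was -0.12 over members, and groups that did not overlap numbered 0 of 39 members, beside 0% of all tested genes. This comparison and the one above share the 16 vehicle libraries.

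Col4a6 had 19.7 to 45.6 CPM in nintedanib libraries against 13.9 to 32.4 in vehicle libraries, a log2 fold change of 0.39 ± 0.11 (adjusted p = 0.0241), higher in 13 of 17. The highest library, nintedanib replicate 1, also held the highest smooth muscle marker sum, 841 CPM beside 205 to 327 in vehicle libraries, and 3 of 7 smooth muscle markers were higher under nintedanib. Without it the log2 fold change of Col4a6 was 0.34 with an adjusted p of 0.0507, just over the threshold, while 42 of the 43 single omissions kept the call. The call was also lost when the 2 bleomycin groups were fitted alone. The part of smooth muscle in the Col4a6 level was not tested.

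Of the fibrillar genes, 9 of 10 had negative differences under nintedanib and none passed. Col1a1 differed by -0.52 ± 0.27 (adjusted p = 0.231), with 13 of 17 nintedanib libraries below the vehicle median, and without vehicle replicate 4 by -0.08. Col1a2 differed by -0.38 ± 0.21, Col3a1 by -0.23 ± 0.16 and Col5a2 by -0.27 ± 0.21 (adjusted p = 0.268, 0.382 and 0.446), and without vehicle replicate 4 by -0.08, -0.11 and -0.09. Col24a1, with -0.69 ± 0.25 (adjusted p = 0.0788), and Col15a1, with -0.54 ± 0.21 (adjusted p = 0.104), came nearest to the threshold among lower values. Col24a1 passed when vehicle replicate 10 or 13 or nintedanib replicate 12 was left out (lowest adjusted p = 0.025), and Col15a1 without vehicle replicate 10 or nintedanib replicate 8 (lowest adjusted p = 0.043). For Col11a1 the difference of -1.12 ± 0.65 became 0.63 without vehicle replicate 4. With 2 surrogate variables in the fit, Col1a1 (0.17), Col1a2 (0.12), Col3a1 (0.11), Col5a1 (0.13), Col5a2 (0.21), Col5a3 (0.20) and Col11a1 (1.09) were positive. Col24a1 (-0.27) and Col27a1 (-0.09) stayed negative, and no fibrillar gene passed in that fit.

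No transmembrane gene passed. Col17a1 differed by 0.47 ± 0.29 (adjusted p = 0.327), Col23a1 by 0.21 ± 0.10 (adjusted p = 0.19), and Col13a1 by 0.22 ± 0.10 (adjusted p = 0.171). Among members of other classes, Col8a2 differed by 0.31 ± 0.15 (adjusted p = 0.21) and Col26a1 by 0.43 ± 0.21 (adjusted p = 0.205), also without passing. The highest Col17a1 value, 13.7 CPM, came from nintedanib replicate 1, which also held 34.4 CPM of the basal epithelial keratin Krt5 and 2360 CPM of the airway gene Bpifa1, and without it the Col17a1 difference was 0.24. Col6a5 (0.85 ± 0.31, adjusted p = 0.0796) was higher in 15 of 17 libraries and passed without vehicle replicate 10 (adjusted p = 0.021). Col6a1, Col6a2, Col4a4, Col11a2 and Col20a1 differed by at most 0.03 on the log2 scale.

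The ratio of Col4a3 to Col4a1 was -2.29 ± 0.30 in nintedanib libraries (SD, n = 17), higher than in vehicle libraries by 0.32 (permutation p = 0.02, adjusted p = 0.03). It lay between the control and vehicle means, and 0.36 below control (permutation adjusted p = 0.00042). Within the 11 vehicle and 13 nintedanib libraries that share the commonest name prefix, whose meaning the labels do not give, the difference was 0.31 (permutation adjusted p = 0.097). It was 0.35 (permutation adjusted p = 0.088) without the libraries that held Adipoq, and 0.26 (permutation adjusted p = 0.049) without vehicle replicate 4. Col3a1 relative to Col1a1 differed by 0.09 between the bleomycin groups (permutation adjusted p = 0.57), and was 0.36 higher under nintedanib than in control (permutation adjusted p = 0.015). That last difference was 0.33 within the commonest prefix and 0.25 without the libraries that held Adipoq, where it did not pass (permutation adjusted p = 0.068 and 0.37).

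Nintedanib against control gave 26 higher and 2 lower of 39 members, beside 28.1% and 25.1% of all tested genes, and 13 rose at least 2-fold, beside 4.7%. The median log2 fold change was 0.70 over members. In 5 members, Col1a1, Col1a2, Col3a1, Col5a2 and Col28a1, the groups did not overlap, as in 4.31% of all genes. Col3a1 rose by 1.72 ± 0.20, Col5a2 by 1.80 ± 0.26, Col1a1 by 1.45 ± 0.33, Col4a1 by 1.08 ± 0.17, Col24a1 by 2.89 ± 0.37 and Col28a1 by 2.32 ± 0.28. Falls passed for Col17a1 (-0.83 ± 0.32) and Col23a1 (-0.32 ± 0.12), but not with 2 surrogate variables (adjusted p = 0.114 and 0.175), where Col6a4 passed instead. In the fit without surrogate variables Col6a4 differed by -0.70 and did not pass, and by 0.20 when control replicate 4 was left out. Col4a6 stood at -0.04 ± 0.12 (adjusted p = 0.802). Without the libraries that held Adipoq, 10 members rose and 0 fell, beside 11.8% and 9.8% of all genes in that fit. Control libraries are shared with the first comparison.

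Libraries of 1 bleomycin group differed widely in collagen. In vehicle libraries 20 of 38 members correlated positively with Col1a1 and 1 negatively (Pearson's r, permutation p adjusted over 76 relations), or 21 and 2 by Spearman's rho. In nintedanib libraries the counts were 19 and 2 by r and 21 and 3 by rho. The weakest positive r that passed was 0.56 in vehicle and 0.54 in nintedanib libraries, values that 13.7% and 8.84% of the 14835 other tested genes also reached, beside 52.6% and 50.0% of the members. For negative relations, r of -0.70 and -0.55 or beyond was found in 2.63% and 5.26% of members and in 5.51% and 5.89% of all other genes. Col1a2 followed Col1a1 most closely, with r = 0.99 (rho = 0.98, permutation adjusted p = 5.1e-05) in vehicle and r = 0.98 (rho = 0.97) in nintedanib libraries. In vehicle and nintedanib libraries in turn, r was 0.98 and 0.96 for Col5a1, 0.91 and 0.80 for Col3a1, 0.90 and 0.96 for Col15a1, and 0.92 and 0.78 for Col18a1. These values shared library depth and scaling.

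For Col4a3, Col4a4 and Col4a5 no relation with Col1a1 passed. Their r lay between -0.22 and 0.27 over the 2 groups (permutation adjusted p of 0.42 to 0.8), and between 0.23 and 0.75 without the 2 libraries farthest from the Col1a1 median. Col4a6 ran against Col1a1 in vehicle libraries, with r = -0.70 (rho = -0.72, permutation adjusted p = 0.0034, and -0.69 without the 2 farthest). In nintedanib libraries Col4a6 gave r = -0.52 (rho = -0.54, permutation adjusted p = 0.058 for r and 0.045 for rho), and r = -0.30 without the 2 farthest. Col17a1 ran against Col1a1 in nintedanib libraries (r = -0.68, rho = -0.73, permutation adjusted p = 0.0061) and gave r = -0.24 in vehicle libraries, or -0.70 without the 2 farthest. Col20a1 was the other member whose negative r passed in nintedanib libraries (r = -0.55, rho = -0.58, permutation adjusted p = 0.046 for r). In vehicle libraries Col20a1 passed by rho alone (r = -0.55, rho = -0.68, permutation adjusted p = 0.078 for r and 0.01 for rho).

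**Figure D5:**
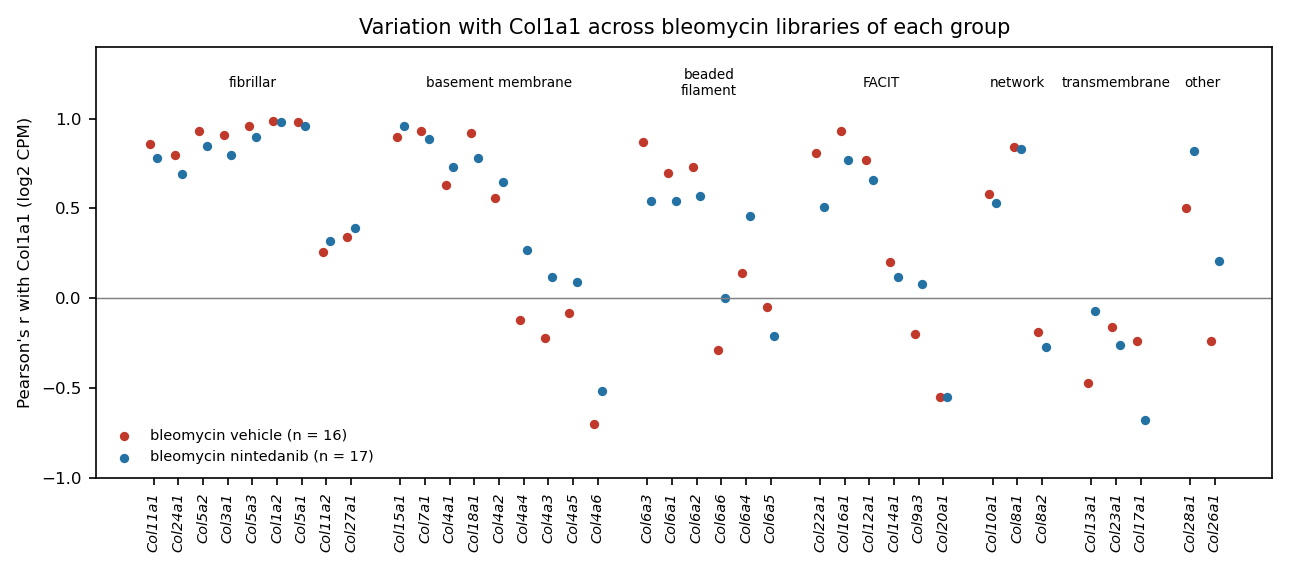
Pearson's r of each tested member's log2 CPM with that of Col1a1 across the 16 vehicle (red) and 17 nintedanib (blue) libraries, by class. Fibrillar genes other than Col11a2 and Col27a1 lie between 0.69 and 0.99, and Col4a6 lies at -0.70 and -0.52.

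Genes that make, join or degrade collagen were counted by lists. Of 23 enzymes and chaperones of chain hydroxylation and folding, 14 rose and 4 fell in vehicle against control, among them Sparc, a collagen-binding matrix protein (1.08), the prolyl hydroxylase subunits P4hb (0.53) and P4ha3 (3.62), and the glycosyltransferase Colgalt1 (0.84). All 6 crosslinking enzymes rose, with the lysyl oxidase family members Loxl2 at 1.54, Lox at 1.26, Loxl4 at 0.86 and Loxl1 at 0.78. Of 7 tested genes of propeptide cleavage 3 rose, including the proteases Bmp1 (0.87) and Adamts2 (1.38), and 2 fell, including the enhancer Pcolce2 (-1.26). Of 10 tested fibril assembly genes 5 rose and 3 fell, with fibronectin, Fn1, at 2.56 and osteoglycin, Ogn, at -1.34. These counts stand beside 29.5% of all genes higher and 28.3% lower.

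Among collagen receptors 6 of 12 rose and 3 fell, with Cd44 at 1.27, Lair1 at 1.35 and the collagen-binding integrin Itga1 at -0.96. Of 11 tested genes of collagen breakdown 7 rose and 1 fell, with the lysosomal protease Ctsk at 3.03 and the metalloproteases Mmp2 at 2.36 and Mmp14 at 1.81. Of 10 partners and crosslinkers of collagen IV 5 rose and 0 fell at an adjusted p under 0.05 (5 and 0 at an unadjusted p under 0.05), the laminins Lama5 (0.57), Lama3 (0.71) and Lamc1 (0.53), Nid1 (0.29) and perlecan, Hspg2 (0.29). These counts too stand beside 29.5% higher and 28.3% lower. In nintedanib against vehicle, 3 of 23 folding genes and 1 of 10 fibril assembly genes were higher. Lower were 1 of 7 propeptide cleavage genes and 1 of 12 receptors, and 1 of 11 breakdown genes passed in each direction. Of all genes 3.21% were higher and 4.1% lower. P4ha1 (0.29), Mia3 (0.10) and Fkbp14 (0.29) were higher among folding genes, Tll1 was lower (-0.41) among propeptide proteases and Ogn higher (0.62) among fibril assembly genes. Adgrg1 was lower (-0.17) among receptors, Mmp9 higher (0.99) and Mmp14 lower (-0.51) among breakdown genes, and 0 of 6 crosslinking enzymes and 0 of 10 collagen IV partners passed in either direction (1 and 1 lower at an unadjusted p under 0.05).

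The 5 members left out of the test had few reads. Col2a1, the cartilage fibril chain, had 0 to 0.484 CPM in control (median 0.057), 0.11 to 0.685 in vehicle (median 0.404) and 0 to 2.74 in nintedanib libraries (median 0.34). Its highest value was again in nintedanib replicate 1, which held 2.31 CPM of the cartilage gene Acan. Col25a1 had medians of 0.142, 0.167 and 0.237 CPM in control, vehicle and nintedanib libraries. Col9a1, Col9a2 and Col19a1 had medians of 0 CPM in control libraries and of at most 0.0762 in bleomycin libraries.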

How the data were processed

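RNA of the inferior lung lobe was sequenced in 43 libraries, single-end and directional per the labels' protocols. The authors deposited whole-number counts per gene. STAR 2.7.0f, R 3.6.0 and GRCm38 are named in the submitters' processing notes with no role. Counting tool, strand setting and annotation release: not given in the sources used here. All 21938 genes matched GENCODE GRCm38 symbols. No 2 libraries of a group agreed within sampling noise (301 pairs, lowest chi-square per degree of freedom 5.22).

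A low-count filter (filterByExpr of edgeR 4.0.16, minimum count 10 and total 15) left 14836 genes. All 3 groups entered 1 quasi-likelihood fit with TMM scaling, and its two-sided p-values were adjusted over every tested gene (Benjamini-Hochberg, 0.05). The comparisons share libraries and 1 estimate of spread. The SE of a log2 fold change was taken as its absolute value divided by the square root of the F statistic. Per-library values were log2 CPM with a prior count of 2. Ratios used a prior of 0.5 counts and permutation tests (100000 resamples, exact where a group had fewer than 10 libraries), and correlations 100000 permutations. The fit was tested on simulated data. Levels are given for the 2 most abundant members of each class and the one with the largest vehicle change, and up to 4 called genes of smallest p for each list; levels of Col1a1, Col24a1, Col7a1, Col4a6 and the untested members, and values of Hspg2, were added after they were seen. Members and lists were chosen with earlier results of these data known. Alternatives were other scaling, filters, covariates, left-out libraries, DESeq2 1.42.0, limma 3.58.1 (voom with library quality weights) and surrogate variables (sva 3.50.0). R 4.3.3 was used for fits, and Python 3.11.15 with SciPy 1.17.1, pandas 2.3.3 and NumPy 2.4.6 for the rest.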

Additional observations from a re-analysis of the deposited data

Results flagged for a closer look

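Control replicate 4 stood apart for Col6a4, at a log2 CPM of 2.55 beside 0.09 in the next control library. The gap was 0.6 of the range of the 10 control libraries, above the limit of 0.466 that Dixon's test sets at the 95% level. It was the only one of 47 collagen values checked in this way to pass, and about 1 in 20 would by chance.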

How the results depend on the processing

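Between 26 and 28 members rose and 5 to 7 fell in vehicle against control when each library was left out in turn, 0 to 2 rose and 0 to 2 fell in nintedanib against vehicle, and 24 to 26 rose and 2 fell in nintedanib against control. Without libraries holding Adipoq (2 control libraries left), 13 rose and 0 fell in vehicle and 10 rose and 0 fell in nintedanib against control. With 2 surrogate variables 21 rose and 2 fell in vehicle against control, beside 22.2% and 19.6% of all genes. The rises of Col5a1, Col8a1, Col11a1, Col11a2, Col12a1, Col14a1 and Col27a1 and the falls of Col4a6, Col8a2, Col17a1 and Col26a1 lost their calls. In nintedanib against control 25 rose and 1 fell there, Col6a4 (-1.05), and Col17a1 and Col23a1 no longer passed. For nintedanib against vehicle, 0 rose with only those 2 groups fitted, and limma-voom gave 4 higher and 2 lower. Single omissions also gave Col6a5 a fall in vehicle against control (control replicates 2, 4, 5 and 8, nintedanib 1, 5, 7, 12 and 14, vehicle 4, 8, 10 and 13, lowest adjusted p = 0.0085) and ended the rise of Col12a1 in nintedanib against control (control 2 to 10, nintedanib 6, 8, 9, 10, 12 and 13, vehicle 6 and 8, largest adjusted p = 0.091) and that of Col11a2 there (control 3, adjusted p = 0.057). The ratio of Col3a1 to Col1a1 in nintedanib against control missed the threshold within the commonest prefix (0.331, permutation adjusted p = 0.068) and without Adipoq libraries (0.251, adjusted p = 0.37), and without vehicle replicate 4, an alternative chosen after seeing the data, it was 0.358 in vehicle against control and -0.002 in nintedanib against vehicle. That of Col4a3 to Col4a1 missed it without Adipoq libraries (-0.697 for vehicle and -0.344 for nintedanib against control, 0.353 for nintedanib against vehicle) and within the prefix (0.306 for nintedanib against vehicle). The cause of these changes was not tested.

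Signs turned for members that had not passed, apart from Col8a1 (-0.13) and Col12a1 (-0.14) in vehicle against control with surrogate variables. In that comparison Col6a4 was 0.55 without control replicate 4, 0.95 without Adipoq libraries, 0.56 by DESeq2 and 0.23 by limma-voom, Col6a6 was 0.82 and 0.34 and Col20a1 0.07 and 0.20 without Adipoq libraries and with surrogate variables. In nintedanib against vehicle, surrogate variables gave 0.17 for Col1a1, 0.12 for Col1a2, 0.11 for Col3a1, 0.04 for Col4a1, 0.06 for Col4a2, 0.13 for Col5a1, 0.21 for Col5a2, 0.20 for Col5a3, 0.07 for Col6a3, 0.02 for Col8a1, 1.09 for Col11a1, 0.19 for Col12a1, 0.13 for Col16a1, 0.03 for Col18a1, -0.07 for Col20a1 and 0.03 for Col28a1. The commonest prefix gave 0.01 for Col4a2, 0.02 for Col12a1 and -0.04 for Col20a1, and library totals -0.01 for Col6a2 and for Col20a1, as did leaving out Adipoq libraries for Col20a1. Col11a1 was 0.67 by DESeq2 and 0.35 by limma-voom, which gave -0.03 for Col4a4 and -0.01 for Col6a2. Without vehicle replicate 4, Col4a4 was -0.03, Col11a1 0.63 and Col12a1 0.03. In nintedanib against control, Col4a6 was 0.06, Col6a4 0.64 and Col20a1 0.06 without Adipoq libraries, and Col6a4 was 0.20 without control replicate 4. There surrogate variables gave 0.09 for Col4a6, -0.12 for Col8a1, 0.20 for Col8a2, 0.13 for Col20a1 and 0.10 for Col26a1, DESeq2 gave 0.21 for Col6a4 and limma-voom -0.23 for Col6a5.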

Other observations

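The same few libraries of the bleomycin groups held the lowest or highest values of many collagen genes. Among vehicle libraries, replicate 10 had the lowest level of 17 of the 39 tested members, among them Col1a1, Col3a1, Col4a1, Col5a2, Col6a1 and Col15a1, and its collagen genes took 0.460% of all counts. It also had the highest vehicle level of 5 members, Col6a5, Col8a2, Col9a3, Col11a2 and Col20a1. Replicate 4 had the highest vehicle level of 18 members, among them Col1a1, Col3a1, Col5a2 and Col24a1, and the lowest of Col4a3, Col4a4 and Col4a5.

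Among nintedanib libraries, replicate 14 had the lowest level of 19 members, which included Col1a2, Col3a1 and the 5 collagen IV genes Col4a1 to Col4a5. The highest values were divided. Replicate 8 had the highest nintedanib level of 9 members, with Col1a1, Col1a2, Col5a1, Col5a3, Col7a1 and Col15a1 among them, and replicate 10 had that of 9 others, with Col4a1, Col4a2, Col4a3, Col4a5, Col6a1 and Col6a2 among them. So the library richest in type I and most type V chains was not the one richest in collagen IV and VI chains. These counts were made after the values had been seen, and no test was made of them.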
